A study of Homo sapiens with 4 samples.

Results

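The subject was the nuclear genes of the mitochondrial respiratory complexes I, II and III and of ATP synthase in A549, a human lung adenocarcinoma cell line. Members were all gene symbols of the count table that start with NDUFA, NDUFB, NDUFC, NDUFS, NDUFV, UQCR or ATP5, together with SDHA, SDHB, SDHC and SDHD. Symbols ending in P and a number, which name pseudogenes, and antisense genes were left out. The rule used names only and found 80 members among 40205 symbols. They comprised 37 subunit genes of complex I, 4 of complex II, 9 of complex III and 16 of ATP synthase, and 14 assembly factors and other symbols.

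RNA-seq counts came from 4 libraries of A549 cells harvested 24 h after transfection of a small interfering RNA (siRNA), an RNA duplex that triggers degradation of a matching transcript. The control group (libraries NC-1 and NC-2) received a negative control siRNA. The other group (libraries Knockdown-670 and Knockdown-732) received siRNA against SBF2-AS1, a long non-coding RNA. All 4 libraries came from the same cell line with the same transfection reagent. The labels give neither the meaning of the numbers in the knockdown names nor the siRNA sequences, and do not say whether libraries of a group came from separate cultures. The spread behind the p-values is that between these samples alone and may be technical.

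The inner mitochondrial membrane holds the respiratory chain. Complex I takes electrons from NADH and complex II takes them from succinate, both pass them to ubiquinone, and complex III passes them on to cytochrome c and from there to complex IV. Complexes I, III and IV pump protons, and ATP synthase lets the protons flow back through its rotating c ring, which turns the central stalk inside the catalytic F1 head and drives ATP synthesis. Subunits of complexes I, III and IV and of ATP synthase are encoded partly in the nucleus and partly in mitochondrial DNA, whereas complex II is encoded in the nucleus alone.

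The libraries held 12149767 to 12938143 counts. The target RNA, SBF2-AS1, was at 4.41 and 5.97 CPM (counts scaled by the TMM-adjusted library size) in the controls and 1.27 and 1.42 CPM in the knockdown libraries, from 57 and 79 counts against 15 and 18. The change was -1.94 on the log2 scale (SE 0.30, edgeR adjusted p = 3.19e-05), in the direction the labels give. All 7 markers of A549 and lung epithelium were at 1 CPM or more in every library, with summed levels of 11197 and 10462 CPM in the controls against 6016 and 6119 CPM in the knockdown. The part of that difference in the members' values was not tested. Fibroblast markers summed to 13.8 to 19.8 CPM, immune markers to 14.7 to 17.9 CPM with CD3E and HLA-DRA at 0, endothelial markers to 1.36 to 3.17 CPM, and erythroid markers to at most 0.155 CPM with HBA2 and ALAS2 at 0. Of the 7 fibroblast and 7 immune markers, 2 of each list were at 1 CPM or more in every library. Of the 5 endothelial and 5 erythroid markers, 0 were. CPM values below are given in the order NC-1 and NC-2, then Knockdown-670 and Knockdown-732.

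More members fell than rose in the knockdown. Of the 78 members with enough counts for a test, 29 fell, 3 rose and 46 did not pass edgeR's quasi-likelihood test at an adjusted p of 0.05. Across all 16120 genes tested, 22.8% were called lower and 23.5% higher (46.3% in either direction), against 37.2% and 3.85% of the tested members. The median log2 fold change of the members was -0.14, within a range from -1.12 to 0.86, and that of all genes was -0.0024. Both knockdown libraries lay below both controls for 38 of the 78 tested members and above them for 11, where 36.2% and 36.4% of all genes did so. Every member called lower was among the 38 and every one called higher among the 11. Groups without overlap, named for single genes below, are thus not separate evidence for a call. The 2 members without a test were ATP5L2, with 0 to 2 counts per library, and ATP5J2LP, a pseudogene name that the rule did not remove, with 0 counts in every library.

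**Figure D1:**
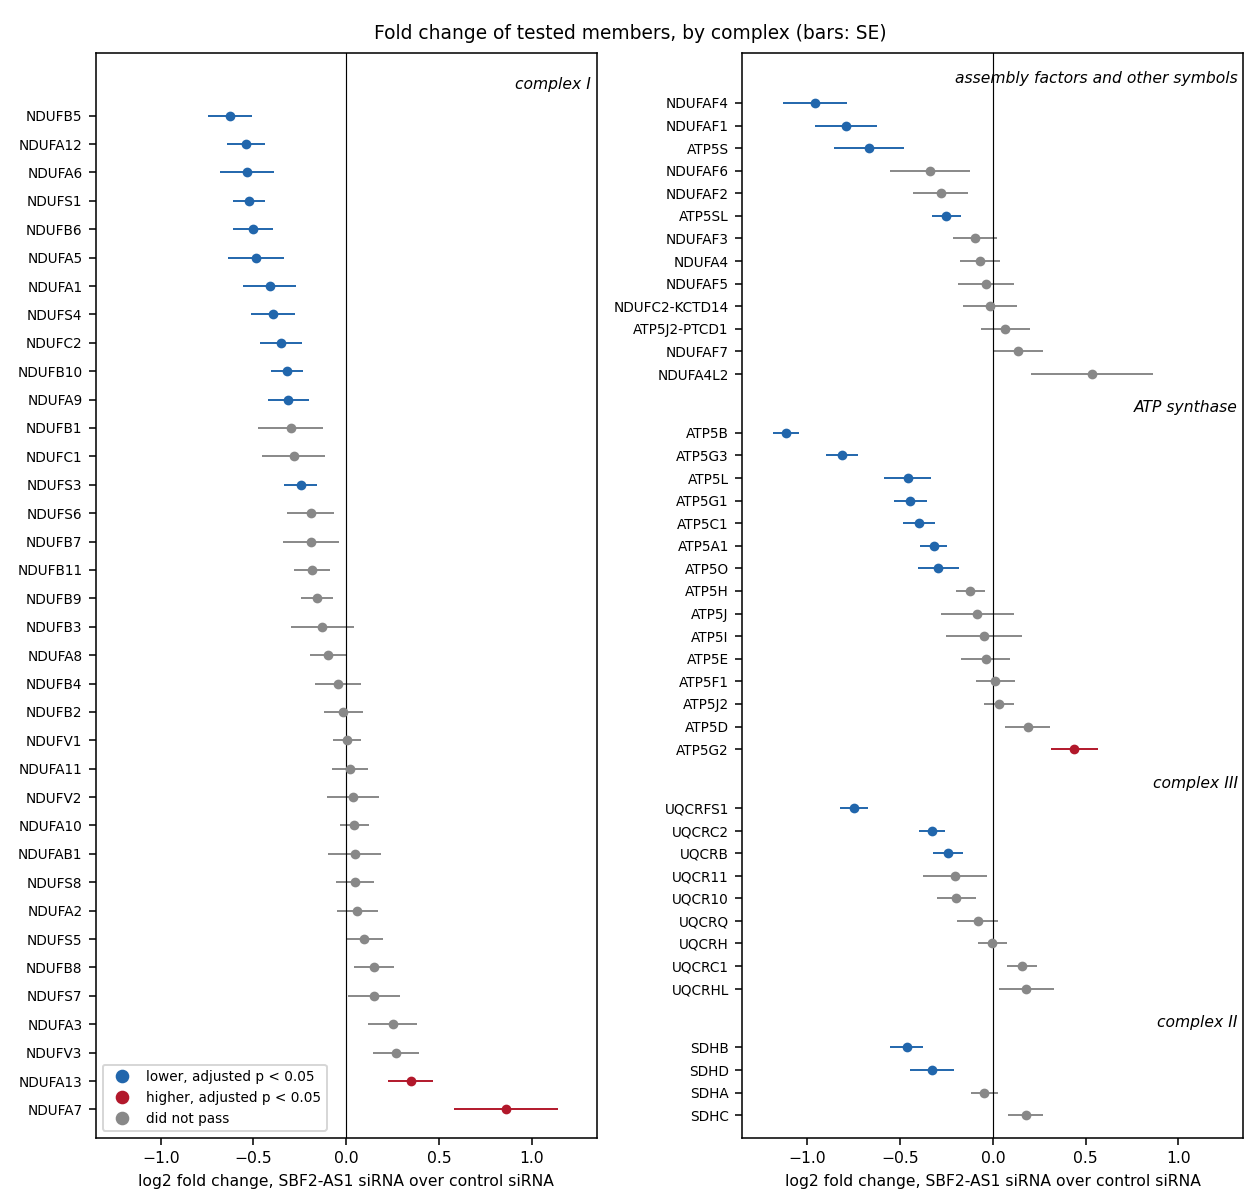
Log2 fold change of tested members (SBF2-AS1 siRNA over control siRNA, horizontal axis), grouped by complex, with bars of 1 SE and colours for the edgeR call at an adjusted p of 0.05. The lowest call in blue (lower) is ATP5B at -1.12, and the 3 in red (higher) are ATP5G2, NDUFA13 and NDUFA7.

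The members' calls were also counted under other settings. DESeq2 called 18 members lower and 1 higher, where it called 17.1% and 17.9% of all genes. Against a change of 1.2-fold (glmTreat), 13 members were lower and 1 higher, beside 13.8% and 15.2% of all genes. With an offset for transcript GC content and length, 23 were lower and 8 higher, beside 23% and 22.7% of all genes. Scaling by library size alone called 31 members lower and 2 higher, beside 26.5% and 20.1% of all genes. A filter of 5 CPM gave 29 lower and 2 higher of 76 members tested, beside 27.9% and 28.1%. Leaving out NC-1, NC-2, Knockdown-670 or Knockdown-732, all genes were lower in 18.3%, 19.7%, 19% and 20.4% and higher in 18.8%, 20.2%, 19.5% and 20.2%. The members then had 21, 25, 27 and 22 lower calls and 1, 3, 0 and 4 higher ones.

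The median was below 0 in each of the 4 complexes, and in each one a part of the subunits was called. Among all genes tested 22.8% were lower and 23.5% higher. Complex I had 13 members lower and 2 higher of 37 (35.1% and 5.41%), with a median log2 fold change of -0.16. Complex II had 2 of 4 lower (50%, median -0.19) and complex III 3 of 9 (33.3%, median -0.20), and neither had a higher call. ATP synthase had 7 lower and 1 higher of 15 tested (46.7% and 6.67%, median -0.12). Among the assembly factors and other symbols 4 of 13 tested were lower (30.8%) and 0 higher (median -0.10). The difference of these shares from those of all genes was not tested. The median of complex III rested on library Knockdown-732: without it the median was 0.02, although the same number of its members, 3, was called lower. Without NC-1 the median of complex I was -0.084. The ATP synthase median was -0.30 without NC-2, -0.26 without Knockdown-670 and -0.27 without Knockdown-732. With an offset for GC content and length the medians of complexes II and III were -0.039 and -0.012.

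**Figure D2:**
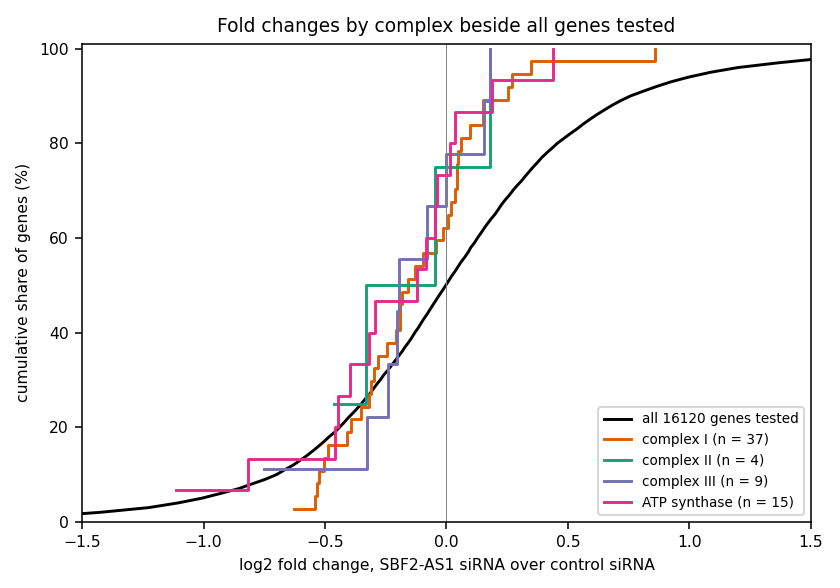
Cumulative share of genes (vertical axis, percent) against log2 fold change (horizontal axis) for the subunits of each complex and for all 16120 genes tested. The 4 complexes lie to the left of the curve of all genes around 0, and few of their members lie to the right of 0.4.

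Summed over all 80 members, the level was 5189 and 4842 CPM in the controls against 4030 and 3911 CPM in the knockdown, and the knockdown libraries were below both controls. A single gene, ATP5B, made up much of the difference. It held 19.8% and 20.2% of the members' counts in the controls and 11.7% in each knockdown library. Without it the sums were 4161 and 3861 CPM against 3560 and 3454 CPM. The members together made up 0.528% and 0.495% of all counts in the controls against 0.391% and 0.385% in the knockdown. In libraries of bulk RNA, fewer cells with a transcript and less of it per cell cannot be told apart.

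Respiratory genes of the nucleus are known targets of NRF1 (nuclear respiratory factor 1), of the ETS factor GABP and of YY1, so the members' promoters were searched for their motifs. RefSeq promoter windows on GRCh38.p14, from 250 bases before to 50 bases after the annotated start, were matched to 61 of the 80 members. Of the 29 members called lower 22 had a window. ATP5B and ATP5G3 had none, so their promoters were not searched. The NRF1 motif (GCGC, then A, then any base, then GCGC), searched on both strands, was in 16 of these 61 members (26.2%) and in 6.98% of all 27305 genes with windows of the same length. It was in 6 of the 22 members called lower that had a window (27.3%) and in 10 of the other 39 (25.6%). The ETS motif CCGGAAG, on both strands, was in 26.2% of the members and 12.2% of all genes, with a match in 36.4% of the members called lower and 20.5% of the others. The YY1 motif AAGATGGCG was in 14.8% of the members and 2.14% of all genes, with a match in 18.2% and 12.8%. The differences between members called lower and the others were not tested. A motif match describes letters in a window and is not evidence of binding. The stretches below show the NRF1 match of the 6 members called lower, in order of their fold change, and for comparison those of UQCRC1 and SDHA, which did not pass. The window of SDHA holds 4 matches, of which 1 is shown, and the other windows hold 1 each. Each is printed 5′ to 3′ on the gene's strand, with the match in capitals, either as the motif or as its reverse complement.
UQCRFS1 (chr19:29213165-29213190, - strand): gcctcctcGCGCCTGCGCcgtggttg
NDUFA12 (chr12:95003796-95003821, - strand): ctagctctGCGCACGCGCagagccac
ATP5C1 (chr10:7788147-7788172, + strand): gagcttcgGCGCATGCGCgctgaggc
SDHD (chr11:112086755-112086780, + strand): ctgtgtttGCGCATGCGCgacgggtg
NDUFA9 (chr12:4649026-4649051, + strand): cttggttaGCGCTTGCGCagacaggc
ATP5O (chr21:33915811-33915836, - strand): gccaacgcGCGCGTGCGCccttgcgc
UQCRC1 (chr3:48609676-48609701, - strand): acggtactGCGCCTGCGCcgcgaccg
SDHA (chr5:218146-218171, + strand): tccgctttGCGCAGGCGCggcgcccc

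ATP synthase held the member with the largest fall. ATP5B encodes the beta subunit, which carries the catalytic sites of the F1 head, and lies on the - strand of chromosome 12 from 56638175 to 56646068 (GENCODE v29 on GRCh38, under the newer name ATP5F1B). Its level was 1027 and 980.2 CPM in the controls and 469.9 and 457 CPM in the knockdown, so the groups were far apart and each pair was close. The fold change was -1.12 on the log2 scale (SE 0.07, edgeR adjusted p = 2.56e-10), a fall of 53.8%, and the call held in each of the 14 alternatives run for single genes. Those 14 did not include glmTreat. ATP5B was also the most abundant member in CPM in all 4 libraries.

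The other 4 genes of the F1 head and central stalk moved less. ATP5A1, the alpha subunit that alternates with beta around the head, fell from 352 and 309 to 266 and 264 CPM (log2 fold change -0.32, SE 0.07, edgeR adjusted p = 0.00152). ATP5C1, the gamma subunit that forms the shaft of the central stalk, fell from 218 and 185 to 144 and 162 CPM (-0.40 on the log2 scale). For both genes the knockdown libraries were below both controls, and the call of ATP5C1 was lost with the GC and length offset (-0.091). The small stalk subunits did not pass: ATP5D (delta) was at 19.6 and 20.5 against 22.5 and 23.1 CPM and ATP5E (epsilon) at 33.3 and 28.9 against 34.6 and 26.1 CPM.

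Alpha and beta occur in equal number in the assembled enzyme, and their transcripts were compared per length. The level of ATP5B per kb of median annotated transcript was 3.34 and 3.63 times that of ATP5A1 in the controls and 2.02 and 1.97 times in the knockdown. The ratio was lower in both knockdown libraries, with no overlap. The exact 2-sided permutation test gave p = 0.333, the smallest value that 2 against 2 libraries allow. Without overlap this test can give no other value, so it cannot decide on the difference.

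The c ring is encoded by ATP5G1, ATP5G2 and ATP5G3, whose different precursors yield the same mature protein, and these 3 genes did not move together. ATP5G3 fell from 123 and 103 to 64.4 and 64.1 CPM, the largest fall among the 3 (log2 fold change -0.82, SE 0.09, edgeR adjusted p = 3.93e-07). ATP5G1 fell from 117 and 95.98 to 76.4 and 80.1 CPM (-0.45, SE 0.09). In both, every knockdown value was below every control value. ATP5G2 rose from 42.4 and 50.6 to 71.4 and 54.999 CPM, with no overlap between groups (0.44, SE 0.13, edgeR adjusted p = 0.0152). That rise was no longer called without NC-1 or without Knockdown-670, where the adjusted p reached 0.0928 and the log2 fold change 0.24 without the latter, and none of the 3 rises among all members held in every alternative.

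Per kb of transcript, the 3 c-ring genes summed to 416 and 363 CPM per kb in the controls against 306 and 293 CPM per kb in the knockdown. The share of that sum from ATP5G2 was 12.6% and 17.2% in the controls against 28.8% and 23.2% in the knockdown. ATP5G3 gave 35.1% and 33.8% against 24.96% and 26.04%, and ATP5G1 gave 52.3% and 49.0% against 46.3% and 50.8%. The ATP5G2 share was thus higher and the ATP5G3 share lower in both knockdown libraries, while the ATP5G1 shares overlapped. For the summed level and for the ATP5G2 share the exact 2-sided permutation p was 0.333, again the smallest possible and the only value possible without overlap. These shares rest on the annotated transcript lengths, and the transcripts in use in these cells were not measured.

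**Figure D3:**
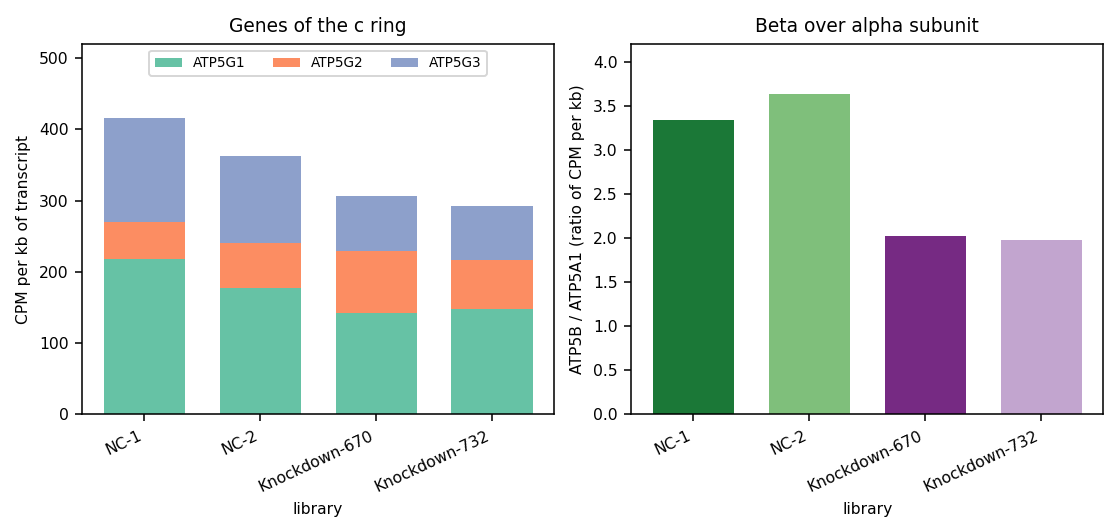
Left, level of the 3 c-ring genes in CPM per kb of transcript (vertical axis), stacked for each of the 4 libraries; right, ratio of ATP5B to ATP5A1 in CPM per kb in the same libraries. The c-ring stack is 363 to 416 CPM per kb in the controls and 293 to 306 CPM per kb in the knockdown, with a larger ATP5G2 part, and the ratio is 3.34 and 3.63 against 2.02 and 1.97.

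In the peripheral stalk, which holds the head still against the turning ring, 1 of 4 genes fell (25%, close to the 22.8% of all genes). ATP5O, the OSCP subunit at the top of the stalk, fell from 30.4 and 29.9 to 25.1 and 24.03 CPM (log2 fold change -0.29, edgeR adjusted p = 0.0377), a call that was lost when any single library was left out, in DESeq2 and with the GC and length offset (-0.18). ATP5H, ATP5F1 and ATP5J did not pass. ATP5H (subunit d), the most abundant of the stalk genes in CPM, was at 76.6 and 79.1 against 75.1 and 68.2 CPM. Among the small membrane subunits e, f and g, ATP5L (g) fell from 24.6 and 24.5 to 19.1 and 16.6 CPM (-0.46 on the log2 scale, edgeR adjusted p = 0.00598), a call lost with the GC and length offset (-0.13). ATP5J2 (f) at 68.3 and 63.6 against 69.2 and 65.8 CPM and ATP5I (e) at 5.80 and 5.44 against 5.69 and 5.20 CPM overlapped between groups.

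**Figure D4:**
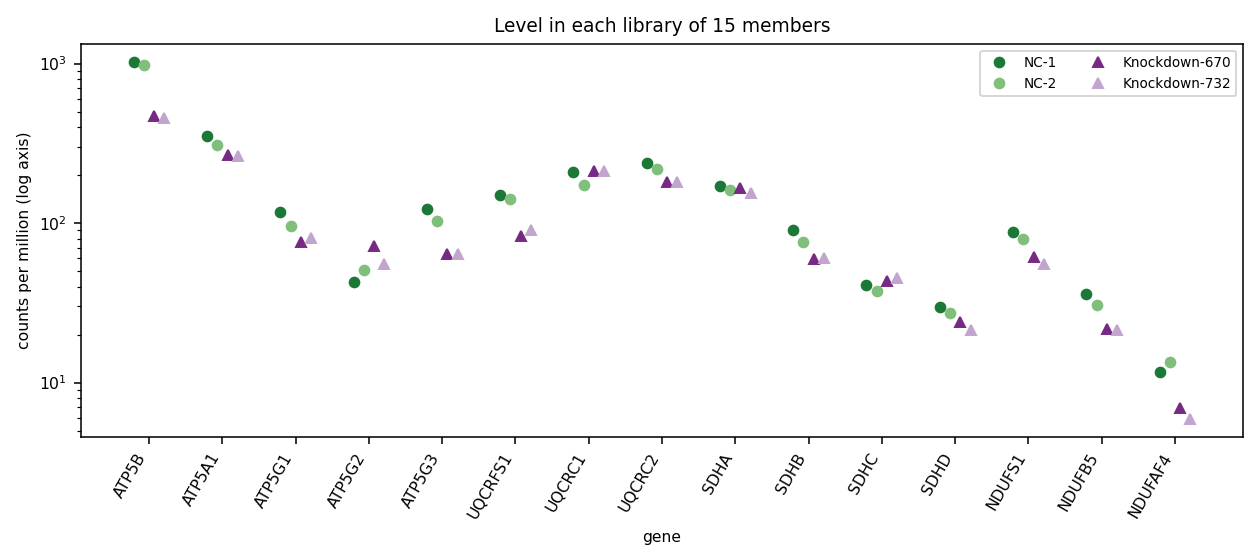
Level of 15 members in each of the 4 libraries, in CPM on a log axis, for genes of ATP synthase, complex III, complex II, complex I and 1 assembly factor. ATP5B sits at 980.2 to 1027 CPM in the controls and 456.9 to 469.9 CPM in the knockdown, ATP5G2 is the one gene of the c ring whose knockdown points lie above the controls, and the points of SDHA overlap.

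In complex III the gene with the clearest fall was UQCRFS1, which encodes the Rieske iron-sulfur protein that takes the first electron from ubiquinol. It lies on the - strand of chromosome 19 from 29205321 to 29213541 (GENCODE v29, GRCh38). Its level was 151 and 142 CPM in the controls and 82.8 and 91.01 CPM in the knockdown, with no overlap. On the log2 scale the change was -0.75 (SE 0.08, edgeR adjusted p = 2.20e-07), a fall of 40.6%, and the call held in each of the 14 alternatives run for single genes.

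Of the paired core proteins of complex III 1 was called, and the difference between them was not tested. UQCRC2 fell from 237 and 217 to 182 and 180.2 CPM (log2 fold change -0.33, SE 0.07, edgeR adjusted p = 0.000852), and by 0.18 with the GC and length offset, where it was still called. UQCRC1, its partner, was at 209 and 172 CPM in the controls and 211 and 213 CPM in the knockdown and did not pass (0.16, SE 0.08, edgeR adjusted p = 0.132). Its knockdown values lay just above the higher control. UQCRB, a small subunit at the ubiquinone site, fell from 115 and 97.9 to 87.03 and 92.6 CPM (-0.24), but this call was lost without NC-1 (-0.13), without Knockdown-670, in DESeq2 and with the GC and length offset (-0.012).

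The remaining small subunits of complex III did not pass. UQCRH, the hinge protein near cytochrome c1, was at 105 and 93.9 against 102 and 96.8 CPM, and UQCRQ at 53.04 and 55.4 against 58.3 and 44.4 CPM. UQCR10 was at 40.6 and 37.03 against 36.4 and 31.4 CPM and UQCR11 at 14.9 and 15.6 against 16.05 and 10.6 CPM. In UQCRQ and UQCR11 the overlap came from Knockdown-670, the higher of the knockdown values. UQCRHL, an intronless near-copy of UQCRH, was at 15.3 and 13.8 against 18.4 and 14.7 CPM, and reads of the pair may have been exchanged in the counting.

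Complex II splits into a catalytic part and a membrane anchor, and 1 gene of each part fell. SDHA, the flavoprotein that oxidises succinate, was at 172 and 160.2 CPM in the controls and 166 and 155 CPM in the knockdown, overlapping (log2 fold change -0.05, SE 0.07, edgeR adjusted p = 0.631). SDHB, the iron-sulfur subunit that carries the electrons onward, fell from 89.9 and 75.7 to 59.2 and 60.8 CPM (-0.46, SE 0.09, edgeR adjusted p = 0.000305). Its knockdown libraries were both below the controls and its call held in each of the 14 single-gene alternatives.

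Of the anchor genes of complex II, 1 was called. SDHD fell from 29.8 and 27.1 to 23.9 and 21.5 CPM (log2 fold change -0.33, SE 0.12, edgeR adjusted p = 0.0297), with no overlap. The call was lost without NC-1, without Knockdown-732 and in DESeq2, and the sign turned with the GC and length offset (0.06). SDHC was at 40.9 and 37.6 CPM in the controls and 43.5 and 45.3 CPM in the knockdown and did not pass (0.18, edgeR adjusted p = 0.133), with both knockdown values above both controls.

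Complex I has a membrane arm that pumps protons and a matrix arm that takes electrons from NADH and delivers them to ubiquinone. The core subunits encoded in the nucleus all lie in the matrix arm. The median log2 fold change of these 7 genes was 0.0045. NDUFS1, the large iron-sulfur protein of the NADH end, fell from 87.8 and 79.8 to 61.6 and 55.1 CPM (log2 fold change -0.52, SE 0.09, edgeR adjusted p = 6.14e-05), and its call held in each of the 14 alternatives. Every knockdown value of NDUFS1 was well below every control value. NDUFS3, a subunit of the ubiquinone end, fell by less, from 48.8 and 47.1 to 39.7 and 41.1 CPM (-0.25, edgeR adjusted p = 0.0315), with no overlap between groups. Its call was lost when any single library was left out, in DESeq2 and with the GC and length offset (-0.082).

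The core subunits NDUFV1, NDUFV2, NDUFS7 and NDUFS8 had overlapping groups and did not pass. NDUFV1, which binds the flavin that accepts electrons from NADH, was at 89.2 and 91.1 against 88.6 and 92.3 CPM. NDUFV2, its iron-sulfur partner, was at 26.8 and 34.6 against 27.6 and 35.2 CPM, where NC-2 and Knockdown-732 were the higher library of each pair. NDUFS7 and NDUFS8, the iron-sulfur proteins nearest to ubiquinone, were at 15.5 and 19.05 against 18.3 and 20.01 CPM and at 32.4 and 35.2 against 34.6 and 35.2 CPM.

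Accessory subunits surround the core and are needed for assembly and stability. Of 30 accessory genes 10 fell (33.3%), 2 rose (6.67%) and 18 did not pass, with a median log2 fold change of -0.17. For all genes tested the shares were 22.8% lower and 23.5% higher. NDUFB5, a subunit of the far membrane arm, had the largest fall among them, from 35.95 and 30.5 to 21.7 and 21.3 CPM (log2 fold change -0.63, SE 0.12, edgeR adjusted p = 0.000276). Next came NDUFA12, which joins the complex late in the assembly of the matrix arm, from 48.6 and 42.2 to 32.9 and 29.6 CPM (-0.54, SE 0.10, edgeR adjusted p = 0.000349). Both calls held in each of the 14 single-gene alternatives, and in both genes the 4 libraries split cleanly by group. They were the only accessory subunits of which that held in every alternative, although with the GC and length offset the log2 fold changes were -0.38 for NDUFB5 and -0.30 for NDUFA12.

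Among the other accessory subunits that fell, NDUFB6 and NDUFB10 belong to the far membrane arm, as NDUFB5 does. NDUFB6 fell from 42.6 and 37.9 to 26.9 and 29.9 CPM (log2 fold change -0.50), a call lost with the GC and length offset (-0.13), and NDUFB10 fell from 100.1 and 86.99 to 71.8 and 78.1 CPM (-0.32), a call lost without NC-1. NDUFA1 and NDUFC2 are further small membrane-arm proteins. NDUFA1 fell from 17.6 and 18.97 to 15.2 and 12.4 CPM (-0.41), a call lost without NC-2 or Knockdown-732 and in DESeq2. NDUFC2 fell from 29.5 and 34.1 to 25.05 and 24.8 CPM (-0.35), a call lost without NC-2, in DESeq2 and with the GC and length offset (-0.19). In these 4 genes both knockdown libraries were below both controls.

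The accessory subunits of the matrix arm that fell were NDUFA5, NDUFA6, NDUFA9 and NDUFS4, besides NDUFA12. NDUFA6, a protein of the LYR family that binds the acyl carrier protein, fell from 21.5 and 20.03 to 16.3 and 12.4 CPM (log2 fold change -0.53, edgeR adjusted p = 0.00561), a call lost without Knockdown-732. NDUFA5 fell from 14.999 and 13.8 to 9.51 and 11.03 CPM (-0.49), a call lost without NC-1 or Knockdown-670, in DESeq2 and with the GC and length offset (-0.15). NDUFS4, needed to attach the NADH end, fell from 25.5 and 25.9 to 19.6 and 19.5 CPM (-0.39). That call was lost in DESeq2 and, with a log2 fold change of -0.045, under the GC and length offset. NDUFA9, near the ubiquinone site, fell from 40.7 and 44.6 to 38.5 and 30.3 CPM (-0.31), a call lost without NC-2, without Knockdown-732 (-0.16) and in DESeq2, and it fell by 0.49 without Knockdown-670. No knockdown value of these genes reached a control value.

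The accessory subunits that rose were NDUFA13 and NDUFA7. NDUFA13, also known as GRIM19, was at 23.4 and 25.02 CPM in the controls and 33.97 and 27.8 CPM in the knockdown (log2 fold change 0.35, SE 0.12, edgeR adjusted p = 0.0248). NDUFA7, a matrix-arm subunit, was at 2.47 and 4.16 against 7.39 and 4.73 CPM (0.86, SE 0.28, edgeR adjusted p = 0.0189). Its counts were few, 32 and 55 against 87 and 60, and Knockdown-670 was its highest library. Both calls were lost without NC-1, without Knockdown-670 and in DESeq2, and that of NDUFA13 also with library-size scaling and with the GC and length offset. Without Knockdown-670 the log2 fold changes were 0.20 for NDUFA13 and 0.51 for NDUFA7, without NC-1 that of NDUFA7 was 0.53, and with the offset that of NDUFA13 was 0.20. In GENCODE NDUFA13 overlaps YJEFN3 and NDUFA7 overlaps AC010323.1, each on the same strand, so the counts of both may hold reads of another transcript.

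The 18 accessory subunits that did not pass had log2 fold changes from -0.30 (NDUFB1) to 0.27 (NDUFV3). The most abundant accessory gene in CPM, NDUFB9, was among them, at 104 and 99.2 CPM in the controls and 99.6 and 82.3 CPM in the knockdown (-0.16, edgeR adjusted p = 0.146). Knockdown-732 was its lowest library and Knockdown-670 lay within the controls. NDUFB9 passed as lower with library-size scaling and without Knockdown-670. NDUFAB1, the mitochondrial acyl carrier protein, was at 17.5 and 20.4 against 21.9 and 17.3 CPM, with overlap.

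The complex I assembly factors NDUFAF4 and NDUFAF1 had some of the largest falls of all members. NDUFAF4, which acts with NDUFAF3 early in building the ubiquinone end, fell from 11.6 and 13.4 to 6.96 and 5.91 CPM (log2 fold change -0.96, SE 0.17, edgeR adjusted p = 0.000167). NDUFAF1, a factor for building the membrane arm, fell from 12.3 and 11.2 to 6.45 and 7.09 CPM (-0.79, SE 0.17, edgeR adjusted p = 0.000778). Both had clearly separate groups and held their calls in each of the 14 alternatives, NDUFAF4 with a log2 fold change of -0.46 under the GC and length offset. Of the 7 genes named NDUFAF these were the only ones called, so 28.6% were lower, beside 22.8% of all genes tested. NDUFAF3, the most abundant in CPM, was at 37.8 and 33.3 against 37.02 and 29.5 CPM, and NDUFAF2, NDUFAF5, NDUFAF6 and NDUFAF7 had log2 fold changes from -0.34 to 0.14.

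Further symbols taken by the rule are not subunits of the complexes that their names recall. ATP5S, also called factor B, fell from 8.43 and 8.31 to 5.01 and 5.52 CPM (log2 fold change -0.67, edgeR adjusted p = 0.00713), a call lost in DESeq2. ATP5SL, also known as DMAC2 and required for the distal membrane arm of complex I, fell from 103 and 97.5 to 87.3 and 81.2 CPM (-0.25, edgeR adjusted p = 0.0115), a call lost without NC-1 or Knockdown-732. Both lay below the controls in both knockdown libraries. NDUFA4, now counted as a subunit of complex IV, was at 30.7 and 30.2 against 28.6 and 29.3 CPM and did not pass, and with the GC and length offset its sign turned and it passed as higher (0.30, edgeR adjusted p = 0.0190). Its paralog NDUFA4L2 was at 2.01 and 1.66 against 3.06 and 2.29 CPM. The read-through symbols were ATP5J2-PTCD1, at 19.3 and 18.1 against 18.1 and 21.1 CPM, and NDUFC2-KCTD14, at 12.8 and 15.1 against 14.5 and 13.1 CPM. In GENCODE both overlap the single genes they join, and how such reads were assigned in the counting is not known.

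The 2 knockdown libraries were compared one at a time with the mean of the controls, as a description. The members' median log2 difference was -0.09 for Knockdown-670 and -0.19 for Knockdown-732, while NC-1 and NC-2 lay at 0.04 and -0.04 around their own mean. In complex III the medians were 0.03 and -0.29, in complex II -0.13 and -0.25, in complex I -0.15 and -0.16, and in ATP synthase -0.26 in both. Complex III was thus the complex in which the 2 libraries differed most. In ATP5B the 2 libraries lay at 469.9 and 456.9 CPM and in ATP5G3 at 64.4 and 64.1 CPM.

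GC content moved with the calls (the share of G and C bases in the longest annotated transcript). The median GC content was 45.4% in the 29 members that fell, 48.8% in the 46 that did not pass and 57.2% in the 3 that rose. Below 45% GC, 13 of 23 members were lower and 0 higher, and from 45% to 55% GC 14 of 35 were lower and 0 higher. At 55% GC or more 2 of 20 were lower and 3 higher. All genes showed a like trend: 37.8% of genes below 45% GC were lower and 11.4% higher, against 11.3% and 38.8% at 55% or more, with median log2 fold changes of -0.21, 0.02 and 0.23 in the 3 bands. The members' medians in these bands were -0.31, -0.21 and 0.03, each below that of all genes. Across the 78 members Pearson's r of log2 fold change and GC content was 0.46, and across 14700 genes 0.31, where genes of 1 set of libraries are not independent. The part of GC content in the calls beyond the offset fit was not tested. ATP5B, with a GC content of 51.3%, had a log2 fold change of at most -1.08 in every alternative, the GC and length offset included.

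**Figure D5:**
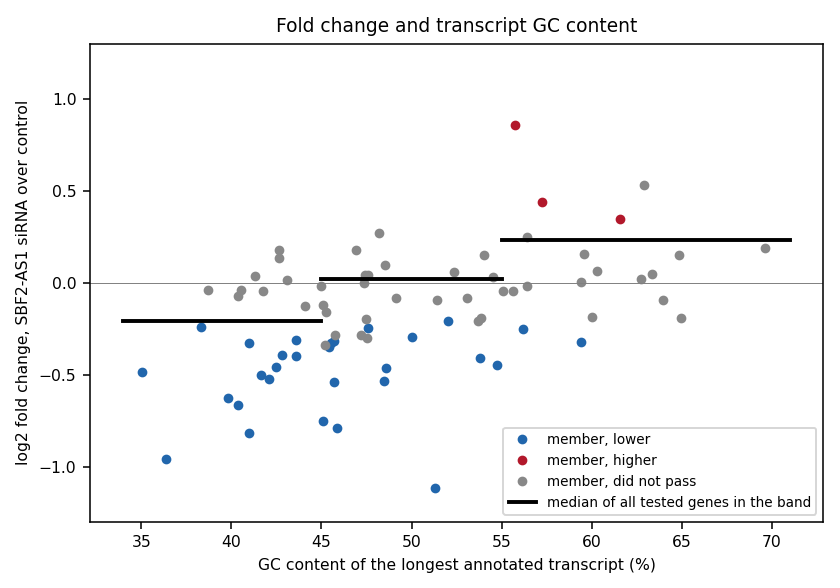
Log2 fold change (vertical axis) against GC content of the longest annotated transcript (horizontal axis, percent) for the 78 tested members, coloured by call, with black bars at the median of all tested genes in each of 3 GC bands. Members that fell have a median GC content of 45.4%, the 3 that rose 57.2%, and ATP5B lies far below the other members of its band.

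Members were also split by their mean over the 4 libraries. Of the 23 members at 50 CPM or more, 13 were lower and 1 higher, while of the 4182 genes tested at that level 28.4% were lower and 35.2% higher. Of the 55 members below 50 CPM, 16 were lower and 2 higher, against 20.9% and 19.4% of the 11938 genes at that level. The difference between the shares of members was not tested.

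Reads of near-identical copies could affect some members. The rule left out 109 pseudogene symbols, 61 of them with a count, and these summed to 1004 to 1202 counts per library against 47463 to 67111 for the members. UQCRFS1P1, a processed copy of UQCRFS1, was counted 220 and 258 times in the controls but 100 and 108 times in the knockdown (log2 fold change -1.10, edgeR adjusted p = 7.60e-06), and so moved in the direction of its parent. It made up 10.1% and 12.1% of the pair's counts in the controls against 9.30% and 8.55% in the knockdown. The SDHA copies SDHAP1 and SDHAP3 were higher (0.35 and 0.81), whereas SDHA itself did not pass. Adding the counts of each pseudogene to its parent, a choice made after the data were seen, left 29 members lower and 3 higher.

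Several members share genome sequence with other genes, and no source used here says whether the counting used strand. In GENCODE, NDUFS1 overlaps EEF1B2, SDHD overlaps TIMM8B, and NDUFB6 overlaps SMIM27, each on the opposite strand, and ATP5J overlaps GABPA. UQCRFS1 overlaps AC007786.1 and ATP5G3 overlaps AC096649.2, also on the opposite strand. Reads of such pairs cannot be told apart here, so the values of these members are less certain than those of ATP5B and UQCRC2, for which no overlap with another gene was listed.

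The rest of the respiratory chain was read from gene lists drawn up beside the rule. Their counts stand against 22.8% of all genes tested called lower. Of the 12 nuclear complex IV genes tested, 2 fell and 1 rose (median log2 fold change -0.10), so 16.7% were lower. COX8A fell from 119.8 and 118 to 85.3 and 83.7 CPM (-0.49, edgeR adjusted p = 2.09e-05) and COX7C from 73.4 and 70.97 to 63.8 and 61.9 CPM (-0.20). COX6B2, an isoform known from testis, rose from 1.39 and 0.907 to 2.80 and 3.78 CPM (1.52). Cytochrome c (CYCS), the carrier between complexes III and IV, fell from 146 and 126 to 80.1 and 89.98 CPM (-0.67, edgeR adjusted p = 4.05e-06), and CYC1, the cytochrome c1 subunit of complex III that the name rule misses, from 224 and 224 to 196 and 157 CPM (-0.35). Of the small ATP synthase proteins outside the rule, C14orf2 fell (-0.67) and USMG5 rose (0.45).

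Of the 13 subunits encoded in mitochondrial DNA, 6 fell and 0 rose, with a median log2 fold change of -0.17. These transcripts together made up 8.00% and 8.21% of all counts in the controls against 7.24% and 7.21% in the knockdown. ATP8, the small ATP synthase subunit, fell from 1111 and 1326 to 789 and 805 CPM (-0.61, edgeR adjusted p = 6.32e-06). The mitochondrial gene listed as COX2, the copper-binding subunit of complex IV, fell from 15724 and 14650 to 11085 and 10920 CPM (-0.47). ND3 and COX3 also fell (-0.37 and -0.31). In each of these 4 the knockdown libraries were below both controls. Summed over the 13, the level was 78596 and 80264 CPM in the controls against 74648 and 73207 CPM in the knockdown. COX2 made up much of that difference. Of the 13, 5 had a log2 fold change above 0 and did not pass. Among these, ND4, ND4L and COX1 (0.14, 0.20 and 0.02) had both knockdown libraries above both controls.

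Assembly factors outside the name rule help to build the complexes without staying in them. For complexes I, II and III and ATP synthase, 9 of 16 tested fell and 0 rose (median -0.28). NUBPL, which inserts iron-sulfur clusters into complex I, fell from 15.9 and 13.6 to 7.30 and 6.38 CPM (-1.11, edgeR adjusted p = 2.17e-05). ECSIT, a complex I factor that acts with NDUFAF1, fell from 17.6 and 19.1 to 12.1 and 10.7 CPM (-0.69). BCS1L, which puts the UQCRFS1 protein into complex III, fell from 26.5 and 25.4 to 16.98 and 18.04 CPM (-0.57), and FOXRED1 fell from 37.3 and 31.3 to 25.2 and 21.4 CPM (-0.56). For complex IV, 4 of 18 factors fell and 1 rose (median -0.20), and the 22.2% lower were close to the 22.8% of all genes. TACO1, needed for translation of the mitochondrial COX1, had the largest fall there (-0.69), and COX15, COX11 and SCO1, of heme a synthesis and copper delivery, fell by 0.36, 0.42 and 0.38 on the log2 scale.

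Pathways that feed electrons into the complexes were read in the same way. Of 13 citric acid cycle genes 6 fell and 1 rose (median -0.13). FH, fumarase, which uses the product of complex II, fell from 65.7 and 58.7 to 34.6 and 31.6 CPM (-0.91, edgeR adjusted p = 3.31e-07). SUCLA2 and SUCLG1, subunits of the ligase that makes the succinate for complex II, fell from 32.3 and 28.3 to 17.2 and 17.96 CPM (-0.79) and from 73.2 and 64.997 to 47.8 and 46.96 CPM (-0.54), and DLD fell by 0.36 on the log2 scale. Of 10 genes of ubiquinone synthesis 5 fell and 0 rose (median -0.40). COQ5, a methyltransferase of that pathway, fell from 64.6 and 54.3 to 23.3 and 26.7 CPM (-1.25, edgeR adjusted p = 3.27e-08), more on the log2 scale than any member. COQ3, COQ2 and COQ7 fell by 1.08, 0.89 and 0.69.

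Regulators of respiratory genes did not share a direction. Of 13 tested, 5 fell and 2 rose (median -0.18). PPARGC1A, the coactivator PGC-1alpha, fell from 8.50 and 9.60 to 3.82 and 4.02 CPM (-1.20, edgeR adjusted p = 7.10e-05). GABPB1 and GABPA, which together form the ETS factor GABP, fell from 31.5 and 34.1 to 21.8 and 18.8 CPM (-0.69) and from 12.8 and 15.5 to 9.001 and 8.75 CPM (-0.68). POLRMT, the RNA polymerase of mitochondria, rose from 87.6 and 93.3 to 122 and 109 CPM (0.35). NRF1 was at 21.4 and 20.1 against 18.9 and 16.1 CPM and did not pass (edgeR adjusted p = 0.131). YY1 fell from 78.9 and 79.6 to 62.9 and 68.9 CPM (-0.27, edgeR adjusted p = 0.0109).

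Among 19 genes of mitochondrial import and carriers 9 fell and 1 rose (median -0.22). HSPD1 and HSPE1, the matrix chaperonin and its co-chaperone, fell from 433 and 414 to 204 and 225 CPM (-0.98, edgeR adjusted p = 2.74e-09) and from 35.3 and 39.8 to 24.96 and 25.1 CPM (-0.59). SLC25A3, the carrier that supplies phosphate for ATP synthase, fell from 434 and 387 to 316 and 324 CPM (-0.36), and VDAC1, a channel of the outer membrane, fell by 0.35 on the log2 scale.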

How the data were processed

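The values the authors deposited are raw counts, whole numbers per gene symbol for each of the 4 libraries, and were used as they stood, with 0 columns of no sample and 0 entries that name no gene. Per the labels' protocols, RNA was extracted with Trizol 24 h after transfection and sequenced on an Ion Proton. GRCh37 is the build in the submitters' processing notes. Which aligner, counter and annotation were used, and whether strand was, is not stated there. Groups were taken from the sample labels.

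The whole table was fitted with edgeR (version 4.0.16, R 4.3.3; filterByExpr, TMM, robust glmQLFit and glmQLFTest, Benjamini-Hochberg adjustment over 16120 genes at 0.05), and the rows of the members were read from it. What edgeR names the biological coefficient of variation, the square root of the common dispersion, was 6.64%. Separate cultures are not stated, so this spread may be technical. Scripts were tested on simulated data. Libraries of a group differed by more than sampling noise: the chi-square per gene was 3.90 for the controls, 3.57 for the knockdown libraries and 48.96 to 54.2 across groups. SE values were obtained as the log2 fold change over the square root of F. Levels per kb used the median length of the basic protein-coding transcripts in GENCODE v29 (GRCh38), joined by symbol (61 members) or synonym (19). The GC and length offset used the longest annotated transcript of each gene instead. The 2 lengths can differ widely, as in SDHC with 13566 bases against a median of 460. Of the 21 assembly factors listed for complexes I, II and III and ATP synthase 5 symbols, and of the 19 for complex IV 1 symbol, were not found in the table under the listed name.

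The members and gene lists were chosen with earlier results of these data known. Named with values were ATP5B, UQCRFS1, every called member, complex II, the member of highest mean CPM in each class and up to 4 called genes of smallest p in each other list. Some items that this rule takes are not reported here. Further members that did not pass, the pseudogenes, NRF1, YY1, ND4, ND4L and COX1 were named after their values were seen. Alternatives were other scalings (DESeq2 size factors, library size, upper quartile), no filter, a filter of 5 CPM in 2 libraries, DESeq2 1.42.0, limma-voom (limma 3.58.1), a non-robust fit, glmTreat against 1.2-fold, a GC and length offset, each library left out and, added later, pseudogene counts joined to their parents.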

Additional observations from a re-analysis of the deposited data

How the results depend on the processing

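No paired analysis was possible because the groups share no replicate numbers. Of 29 members called lower, 12 were called in every alternative run for single genes, and of 3 called higher, 0. Over 559 single-gene alternatives 495 stayed on their side of the threshold (9 of these, in members that did not pass, with a change of sign), 59 lost the call, 3 gained one and 2 turned sign with a call in one of the fits, SDHD (0.061) and NDUFA4 (0.30), both with the GC and length offset. The cause of these changes was not tested. Single-gene alternatives were run only for the called members, complex II and the member of highest mean CPM in each class. Calls gained by other members are not in these counts. The 8 higher calls with the GC and length offset thus include members not followed here. The single-gene alternatives did not include glmTreat, so a call that held in each of them may still be lost under glmTreat.

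In DESeq2, 18 of 78 members were lower and 1 higher, beside 17.1% and 17.9% of all genes. Complex I had 6 of 37 lower and 0 higher, so its lower share was not above that of all genes. Complex II had 1 of 4 lower. With glmTreat, which asks for more than a 1.2-fold change, 13 were lower and 1 higher, beside 13.8% and 15.2% of all genes. Complex I had 5 and 1 of 37, complex II 1 and 0 of 4, complex III 1 and 0 of 9 and ATP synthase 3 and 0 of 15. The lower shares of complexes I and III were not above that of all genes. With the GC and length offset 23 were lower and 8 higher, beside 23% and 22.7% of all genes. Higher calls numbered 4 in complex I and 1 in complex III, and lower calls 1 in complex II and 4 in ATP synthase. The medians of complexes I, II and III were -0.12, -0.039 and -0.012. Library-size scaling, which moved the median of all genes by -0.06, left 1 complex I member higher, with medians of -0.22 in complex I and -0.18 in ATP synthase. The 5 CPM filter left 1 complex I member higher, and without a filter the ATP synthase median was -0.21.

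With 1 library left out at a time, the remaining library of that group was taken to vary like the other pair. The shares of all genes called in these fits are given above, and without Knockdown-732 the lower share of complex I was close to that of all genes. Members called lower then numbered 21 to 27 and higher 0 to 4. The ranges were 8 to 11 lower, 0 to 3 higher and a median of -0.18 to -0.084 in complex I, and 1 to 2 lower with a median of -0.25 to -0.13 in complex II. They were 2 to 4 lower, 0 to 1 higher and -0.29 to 0.022 in complex III, and 6 to 7 lower, 0 to 1 higher and -0.30 to -0.15 in ATP synthase. In complex I 8 were lower without Knockdown-732, 0 were higher without NC-1 and 0 without Knockdown-670. Few counts limit members such as NDUFA7, NDUFA4L2 and ATP5I.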
